A study of Arabidopsis thaliana with 46 samples.

Results

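The response to nitrogen of the Arabidopsis line SALK_070989 was measured in darkness by setting 3 arrays of shoots given nitrogen (dark N-rich) against 3 arrays of shoots without it (dark N-absent). All probe sets whose mean exceeded 4 on the log2 scale in either of these groups were described, 12863 of the 22746 that are not AFFX controls. They lie within the 14288 probe sets that reached that level in any of the 16 groups of the study, over which every test was adjusted. Just inside the level of 4 were GUT2, at 3.65 in dark N-rich and 4.001 in dark N-absent, and UGT73C7, at 4.003 and 2.382. Just outside it were AT1G52630, at 3.998 in both groups, and AT3G48185, at 3.998 in dark N-rich and 3.793 in dark N-absent. A gene name was available for 6834 of the 12863 probe sets (53.1%), and the others were tested but are unnamed here.

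The study compared the wild type Col-0 with T-DNA insertion lines of the transcription factor gene WRKY1 on 46 Affymetrix arrays of seedling shoots, under changes of nitrogen, of light, and of both. SALK_070989 carries an insertion in WRKY1, so every plant of the main comparison, in dark N-rich and in dark N-absent, is a mutant. Seedlings were 14 days old and had grown upright on plates of basal MS medium with sucrose at 22 °C with 16 h of light a day (50 µmol m-2 s-1). The labels give the time of harvest as 2 h after the light period began. The N-rich and N-absent media, the length of the darkness and the time on nitrogen are not given for the combined dark and nitrogen treatment in the sources used here.

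Another 2 comparisons of an N-rich with an N-absent group serve as context. Col-0 was measured in the same dark treatments (2 arrays a group), and SALK_070989 in the light, where seedlings raised on 1 mM KNO3 were moved to the treatment, N-rich being 20 mM KNO3 with 20 mM NH4NO3 and N-absent 20 mM KCl, for 2 h (3 arrays a group). The dark and light nitrogen arrays come from different experiments, and an effect of darkness cannot be told apart from one of the experiment. Nothing in the labels says that the replicates came from separate plantings, so the p-values measure the spread between arrays, which may be technical. SALK_070989 is 1 insertion line, and the other insertion lines of the study were arrayed without a nitrogen treatment.

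Nitrate is a nutrient and also a signal: it is sensed at the cell surface and in the nucleus, and within hours it switches on transporters, the enzymes that reduce nitrate to ammonium, and the supply of reducing power that this reduction needs. Plants short of nitrogen instead recover it from amides, purines and proteins. In the light, photosynthesis provides carbon skeletons and reductant for assimilation, whereas in darkness leaves break down sugars, lipids and branched-chain amino acids. WRKY proteins are plant transcription factors best known from defence and stress.

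The mutant carried almost no WRKY1 signal in these arrays. Its values were 2.23, 2.23 and 2.29 in dark N-rich and the same 3 values in dark N-absent, against 6.81 and 6.81 in Col-0 dark N-rich and 7.02 and 7.36 in Col-0 dark N-absent. The lowest value in the table is 2.23, and no label says where the probes lie relative to the insertion. The shoot gene RCA, which encodes Rubisco activase, was at 11.39 in dark N-rich and 11.51 in dark N-absent. It was the only 1 of 10 listed shoot markers with a gene name here. Of 12 root markers 3 had a name, with array means of 2.58 to 2.76 in dark N-rich and 2.30 to 2.60 in dark N-absent. AGL42 was at 2.23 in both groups and EXPA7 was highest, at 3.07 in dark N-rich and 2.74 in dark N-absent. In Col-0 the array means of these 3 markers were 2.23 in dark N-rich and 2.23 to 2.24 in dark N-absent. For the mutant in the light they were 2.23 in N-rich and 2.23 to 2.76 in N-absent. Array medians were 4.58 to 4.62 in dark N-rich and 4.62 to 4.67 in dark N-absent. The 3′ minus 5′ signal of the GAPDH control, a measure of RNA integrity, was 2.04 to 2.33 in dark N-rich and 2.14 to 2.33 in dark N-absent. Col-0 dark N-absent replicate 1 stood apart with 2.91.

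Some members were measured above the low end of the scale on these 6 arrays only. Among the 12863 probe sets, 51 had means under 3 in each of the other 14 groups, a set chosen after the values had been seen. The choice itself fixes that these probe sets are high on the 6 arrays and low on the 40 others, and their values are given as a description. Their mean per array was 5.03, 3.98 and 4.85 in dark N-rich and 6.07, 5.75 and 6.28 in dark N-absent, and between 2.26 and 2.47 on each of the 40 other arrays. The set contains late embryogenesis abundant (LEA) proteins, which accumulate in maturing seeds, and oleosin and cupin proteins of seed oil bodies and seed stores. Of 15 listed seed programme genes, 2 had a name here, and they differed. LEA4-5, an LEA gene outside the set, was at 7.58 in dark N-rich and 8.99 in dark N-absent, whereas M17, a gene of late embryos, was at 2.25 in both groups and highest in the steady-state Col-0 group (4.32). In bulk shoots, fewer cells of a type and less RNA per cell cannot be told apart. Whether seeds or another tissue were collected with these 6 samples, and what part that has in the results, was not tested. Counts are therefore also given without the set.

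About equal numbers of transcripts were higher and lower with nitrogen. With limma's moderated test and Benjamini-Hochberg adjustment at 0.05, 1890 of the 12863 probe sets were called higher in N-rich and 2029 lower. Among all 14288 tested the shares were 13.6% higher and 15% lower, beside 14.7% and 15.8% of the members. Without the 51 probe sets the counts were 1887 and 1989. The largest changes were mostly increases: 105 probe sets were called higher by at least 4-fold and 42 lower, and at 8-fold the counts were 37 and 3. The counts over all 14288 tested were the same (0.735% and 0.294% at 4-fold, 0.259% and 0.021% at 8-fold). Of the 42 lower by at least 4-fold, 18 belong to the set of 51, which leaves 24. The arrays of the groups did not overlap for 1786 of the 1890 higher calls and 1859 of the 2029 lower calls. Overlap was counted among called probe sets only, which tend to be separate, so these counts are a description and no further support. An exact permutation test of 3 against 3 arrays cannot go below p = 0.1 (two-sided), so the calls rest on limma's model of the spread. That spread was pooled over all groups. A fit of only the groups compared called 1707 higher and 1647 lower. The median difference of the members was -0.03.

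**Figure D1:**
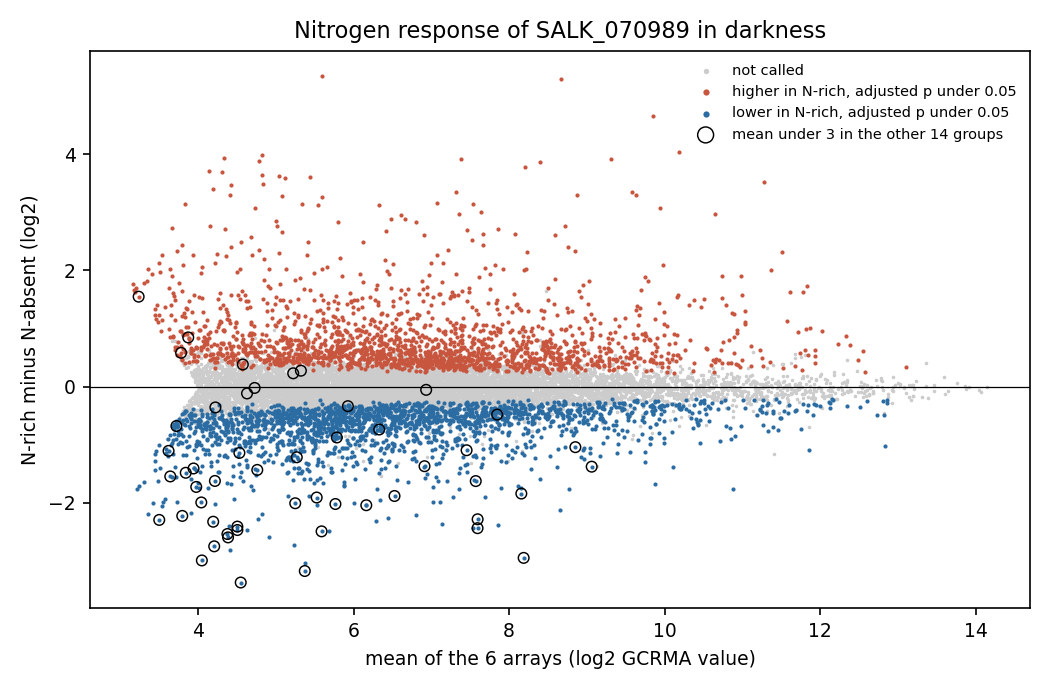
Each point is 1 of the 12863 probe sets, by the mean of its 6 arrays (log2 value) and the difference N-rich minus N-absent (log2). Red and blue points passed an adjusted p of 0.05, 1890 higher and 2029 lower, and circles mark the 51 probe sets with means under 3 in the other 14 groups, most of which lie below 0.

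CC-type glutaredoxins, small redox proteins specific to land plants that bind glutathione, made up 4 of the 15 named genes with the largest higher calls. AT3G62930 stood at 6.51, 6.96 and 6.72 in N-rich, against 3.11, 2.78 and 2.63 in N-absent, a difference of 3.89 ± 0.18 (log2, SE here and below) with adjusted p = 2.4e-18. In a cluster of adjacent genes on another chromosome, AT4G15690 had 5.87, 6.46 and 6.12 in N-rich and 2.68, 2.23 and 2.45 in N-absent, and differed by 3.69 ± 0.19 (4.6e-17). AT4G15680 had 6.62, 7.24 and 6.70 in N-rich and 3.22 on all 3 arrays in N-absent, a difference of 3.63 ± 0.25 (4.7e-14). AT4G15660 differed by 3.48 ± 0.23 and AT4G15700 by 2.67. These genes are near-identical copies, and whether each probe set reads only its own gene was not tested.

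Of 14 measured genes of the CC-type list, 8 were higher, 2 were lower and 4 were not called, with a median difference of 1.07 against -0.03 over all members. The list names 19 genes and may not hold the whole family. The lower ones were AT5G11930, by -1.70 (adjusted p = 1.2e-08), and AT1G06830, by -0.84 (0.028). A further glutaredoxin outside the list and not counted among the 14, AT4G33040, was among the largest decreases. It had 3.86, 3.82 and 3.93 in N-rich against 6.63, 6.79 and 6.39 in N-absent. The arrays of the groups did not overlap for AT4G33040, which was called lower (-2.73 ± 0.22). In Col-0 in darkness 8 of the 14 were higher and 1 lower, with a larger median of 2.02. In the mutant in the light the counts were 8 and 1, with a median of 1.07. Tested directly, the response in darkness was more negative in the mutant than in Col-0 for 2 of the 14 and more positive for 0.

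**Figure D2:**
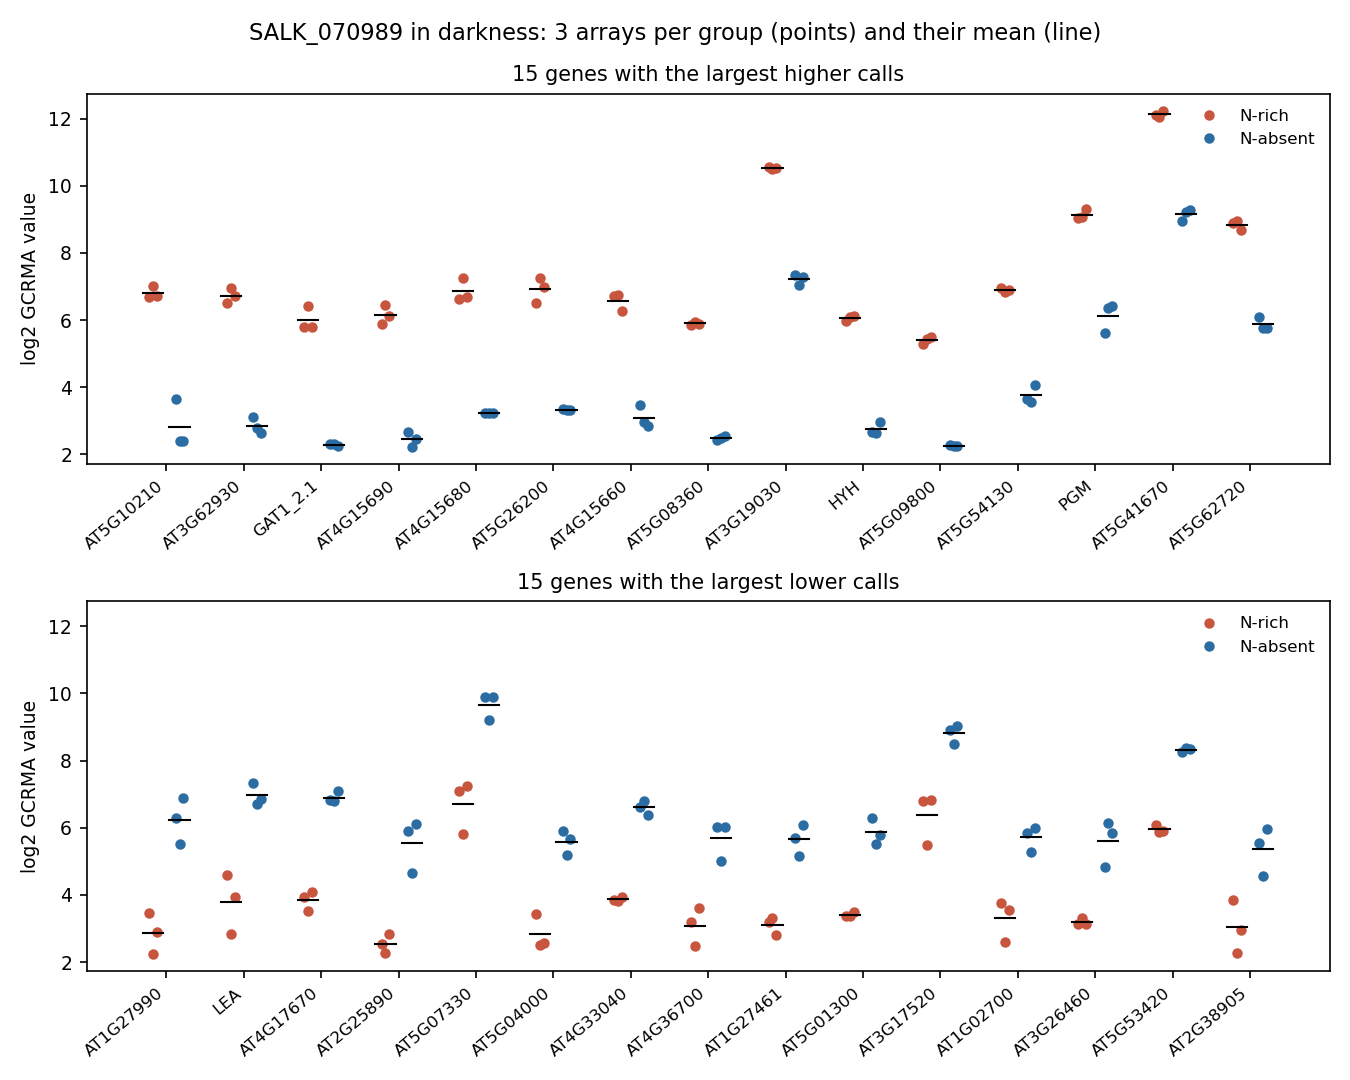
Values of the 6 SALK_070989 arrays in darkness (log2) for the 15 genes with the largest higher calls and the 15 with the largest lower calls among named genes whose arrays do not overlap. Points are arrays and lines are means of 3, with N-rich left of N-absent; AT3G62930 lies between 6.51 and 6.96 in N-rich and between 2.63 and 3.11 in N-absent.

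Genes of the first nitrate response were higher without exception among those measured, 4 of 4, with a median of 2.17; the list names 34 genes. AT5G41670 and AT1G64190 encode 6-phosphogluconate dehydrogenases, which make NADPH in the oxidative pentose phosphate pathway. AT5G41670 had 12.10, 12.06 and 12.24 in N-rich and 8.96, 9.23 and 9.29 in N-absent, a 7.86-fold difference (2.97 ± 0.16, adjusted p = 1.3e-16). AT1G64190 had 11.78, 11.50 and 11.77 in N-rich and 9.76, 9.70 and 9.90 in N-absent (1.90 ± 0.15). Both genes were separated by more than 1 log2 unit between the nearest arrays of the groups. AT1G25550 and AT1G68670, which encode GARP-family repressors induced by nitrate, differed by 2.44 ± 0.15 and 1.89 ± 0.15. The 4 calls held in every alternative tried.

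Other genes among the 15 largest increases have roles in carbon metabolism, transport, signalling and protein turnover. PGM (AT1G78050), a phosphoglycerate mutase family member, had 9.05, 9.06 and 9.31 in N-rich and 5.63, 6.37 and 6.41 in N-absent (3.0 ± 0.25). AT5G26200, a mitochondrial carrier family protein, had 6.50, 7.24 and 7.0 in N-rich and 3.36, 3.31 and 3.31 in N-absent (3.59 ± 0.17). In N-absent the 3 arrays lay at nearly one low value. AT5G09800, a U-box ubiquitin ligase, differed by 3.15 ± 0.28 and AT5G62720, a membrane protein of the HPP family, by 2.96 ± 0.17. AT5G10210 had the largest difference of a named gene, 4.0 ± 0.22, with 6.70, 7.02 and 6.73 in N-rich against 3.66, 2.40 and 2.40 in N-absent. AT3G19030 (3.31 ± 0.28), AT5G08360 (3.40 ± 0.16) and AT5G54130 (3.15 ± 0.26) complete the group with HYH and GAT1_2.1. The 2 largest differences of all were in probe sets with no gene name here. The first had 8.14, 8.42 and 8.27 in N-rich and 2.62, 2.86 and 3.29 in N-absent (5.35 ± 0.26), and the second differed by 5.30 ± 0.29.

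HYH, a bZIP factor related to HY5 that acts in light signalling, was higher with nitrogen in the dark. It had 5.98, 6.10 and 6.12 in N-rich and 2.68, 2.65 and 2.98 in N-absent, a 9.83-fold difference (adjusted p = 6.9e-16). Its mean was 6.07 in dark N-rich and 2.77 in dark N-absent, beside 2.60 in SALK_070989 kept dark and 6.07 in SALK_070989 kept in light in the light experiment. HYH was at 5.70 in Col-0 dark N-rich and 4.21 in Col-0 dark N-absent. GI, the other measured gene of the clock and light list, was at 0.14 and was not called.

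Genes of nitrogen scarcity and recycling moved in both directions. Of 6 measured, 2 were higher and 4 lower. NRT2.5, a high-affinity nitrate transporter known to be induced by nitrogen starvation, had 6.71, 5.83 and 6.28 in N-rich and 8.09, 8.06 and 7.56 in N-absent (-1.63 ± 0.44, adjusted p = 0.0047). ALN (allantoinase) and AAH (allantoate amidohydrolase), which release nitrogen from purine breakdown, were lower by -1.28 ± 0.27 and -0.68 ± 0.13. The asparaginase genes split, since ASPGA1 was lower by -0.45 ± 0.12 and ASPGB1 was higher by 1.15 ± 0.33.

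GAT1_2.1, a glutamine amidotransferase-like gene known to respond to nitrogen supply, was the other member that was higher. It had 5.79, 6.41 and 5.8 in N-rich and 2.32, 2.30 and 2.24 in N-absent, a 13.1-fold difference (3.71 ± 0.35, adjusted p = 2.5e-10). Its N-absent values lay at the bottom of the scale. In SALK_070989 kept dark in the light experiment it reached 9.72, and in the mutant's nitrogen experiment in the light it was at 2.25 in N-rich and 2.23 in N-absent.

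Nitrate and peptide transporter genes also differed in direction. AT1G59740 was higher, with 6.39, 6.66 and 6.55 in N-rich and 3.80, 4.35 and 4.64 in N-absent (2.27 ± 0.23, adjusted p = 6.9e-10). AT1G68570 was lower, with 5.79, 5.13 and 5.39 in N-rich and 6.68, 6.85 and 7.04 in N-absent (-1.42 ± 0.21). With NRT2.5 this gave 1 higher and 2 lower of 6 measured members of that list. The glucosinolate transporters GTR1 and GTR2 were at -0.30 and -0.40 and did not pass.

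Of 10 measured genes of the dark and carbon starvation list, 4 were called higher, with a median of 0.40. BZIP53, a bZIP factor of the low-energy response, had 10.03, 10.05 and 9.99 in N-rich and 9.33, 9.07 and 9.17 in N-absent (0.84 ± 0.12). IVD, which acts in branched-chain amino acid breakdown, differed by 0.53 ± 0.15, PPDK by 0.54 ± 0.16 and D2HGDH by 0.49 ± 0.14. IVD was at 9.44 in dark N-rich and 8.90 in dark N-absent, against 11.97 in SALK_070989 kept dark in the light experiment and 7.87 in its light group.

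Of 11 measured autophagy genes, 1 was called higher and 3 lower, with a median of -0.30. Over all tested the shares were 13.6% higher and 15% lower. Each of the 4 calls was lost without some single array. Without N-rich replicate 2, 1 lower call was made, and APG8H, the call with the smallest adjusted p (-0.42, 0.0092), was at -0.37 (0.052).

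Among 15 measured expansin and xyloglucan endotransglucosylase genes, which loosen and remodel cell walls, 7 were called lower, with a median of -0.31. EXPA4 had 5.68, 5.20 and 5.84 in N-rich and 7.02, 6.56 and 6.91 in N-absent (-1.26 ± 0.21, adjusted p = 2.2e-05). XTH16 had 6.52, 5.92 and 6.19 in N-rich and 7.73, 7.44 and 7.63 in N-absent (-1.39 ± 0.27). The arrays of the groups did not overlap in either gene. EXLB1 was lower by -1.01 ± 0.22. EXPA20 was lower by -0.99 ± 0.16, and its highest mean in the other 14 groups was 3.34.

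The remaining lists had few measured members. Their counts stand beside 13.6% called higher and 15% called lower of all 14288 tested, and counts this small are a description. GH3.17, which conjugates auxin to an amino acid, was lower by -1.41 ± 0.18 (adjusted p = 2.0e-07), one of 2 lower calls among 5 auxin genes. The other, WES1 (-0.57), lost its call when any one of the 6 arrays was left out. The cytochrome P450 list gave 1 higher and 4 lower calls of 11, of which 3 uncalled members are cyclophilins with a similar symbol. Its calls were led by CYP71B26 (-1.37 ± 0.17) and CYP71B28 (-1.28 ± 0.19). Glutathione transferases gave 2 lower of 7, GSTU27 (-0.95 ± 0.14) and GSTU16 (-0.70 ± 0.10). Touch and calcium genes gave 2 higher and 1 lower of 4, with the zinc finger gene STZ at 1.04 ± 0.27. The calmodulin-like genes CML38 (0.82) and CML41 (-0.86) lost their calls without N-rich replicate 3 (0.051 and 0.063), CML38 also without N-absent replicate 2 (0.074) and CML41 without N-absent replicate 3 (0.051). The cytokinin response regulator RR16 was lower by -0.94 ± 0.21 and the sulfite reductase gene SIR was higher by 0.68 ± 0.11.

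Further lists gave 2 lower of 5 WRKY genes, 1 higher of 4 abscisic acid and cold genes, and 1 lower of 4 glucosinolate genes. These counts, too, are a description beside 13.6% higher and 15% lower of all tested. WRKY20 (-0.46) lost its call without N-rich replicate 2 (adjusted p = 0.053), and WRKY47 (-0.74) did so without N-absent replicate 2 (0.077), N-rich replicate 1 (0.055) or N-rich replicate 2 (0.085). COR47 (0.61) lost it without N-absent replicate 1 (0.081) or N-rich replicate 2 (0.072). BCAT4 (-0.42) lost it without N-absent replicate 2 (0.060), N-absent replicate 3 (0.052), N-rich replicate 1 (0.087) or N-rich replicate 2 (0.075). Single measured genes of the iron list, PYE (0.41), and of the defence list, ECS1 (-0.28), did not pass. Ammonium assimilation, phosphate, jasmonate, cell division, ribosomal, amino acid transporter and trehalose genes had no named probe set among the members, and the heat shock pattern matched only BRK1, which is no heat shock gene.

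**Figure D3:**
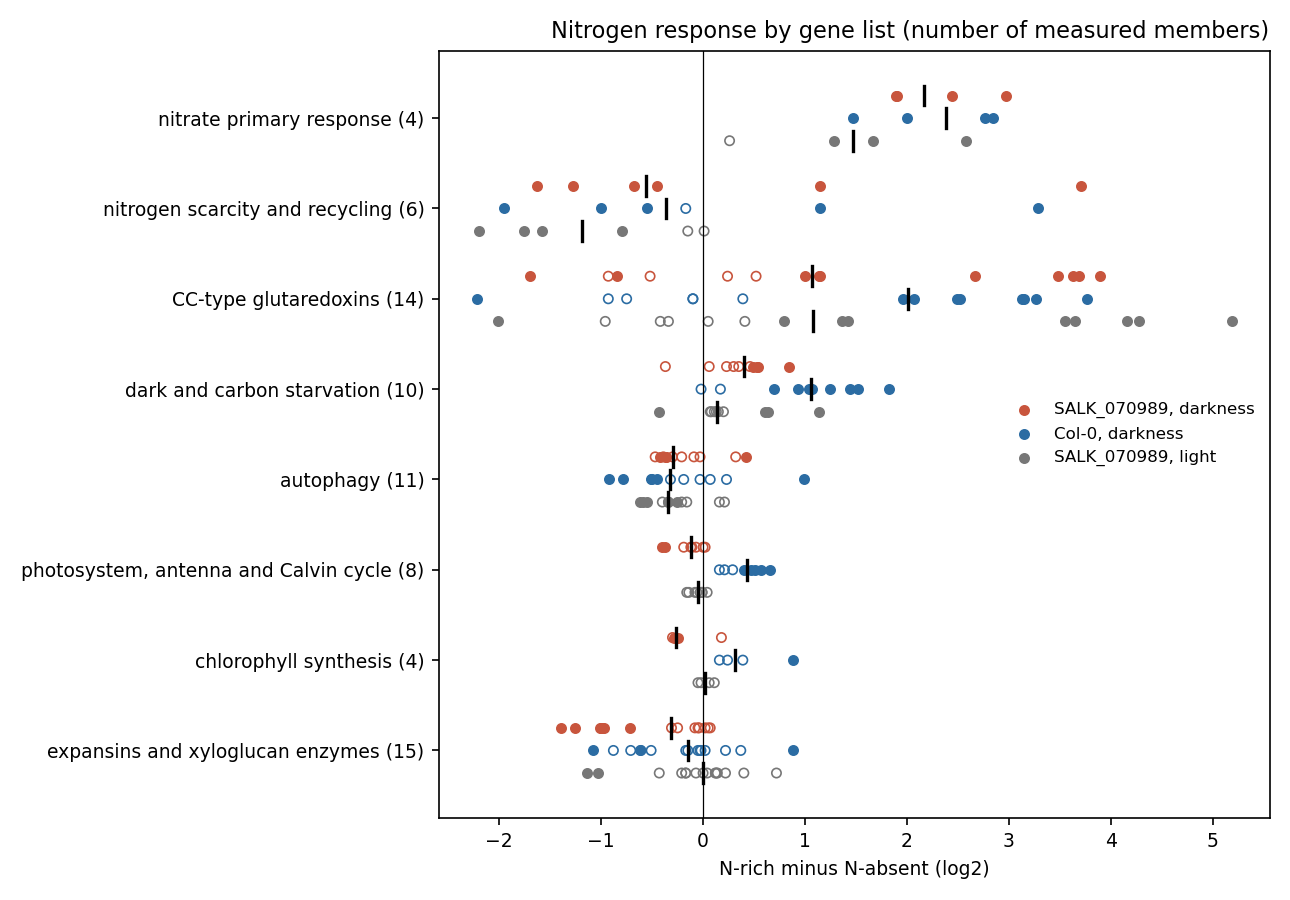
Nitrogen response (N-rich minus N-absent, log2) of the measured members of 8 gene lists in SALK_070989 in darkness, Col-0 in darkness and SALK_070989 in the light. Filled points passed an adjusted p of 0.05, open points did not, and black ticks are medians; all 4 nitrate genes lie above 0 in each row, and the photosynthesis medians are -0.12 in SALK_070989 in darkness and 0.44 in Col-0.

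The largest decreases were led by transcripts of the set of 51. LEA (AT2G21490), a dehydrin gene, had 4.58, 2.85 and 3.93 in N-rich and 7.32, 6.71 and 6.85 in N-absent (-3.18 ± 0.20, adjusted p = 4.5e-15). AT2G25890, of the oleosin family, had 2.53, 2.27 and 2.85 in N-rich and 5.91, 4.64 and 6.10 in N-absent (-2.99 ± 0.17). N-rich replicate 2 and N-absent replicate 2 were the lowest of their groups for both genes. AT5G07330 had 7.1, 5.8 and 7.24 in N-rich and 9.89, 9.21 and 9.88 in N-absent (-2.95 ± 0.18). The SEs of these genes and the adjusted p of LEA rest on a spread pooled over all 16 groups. Nearly all arrays of the other groups lay at one low value, so these SEs and this p understate the spread between the 6 arrays. AT1G27990 (-3.37), AT5G04000 (-2.75), the cupin gene AT4G36700 (-2.60), AT1G27461 (-2.54), the LEA gene AT3G17520 (-2.44), AT1G02700 (-2.41) and AT2G38905 (-2.33), of a family responsive to low temperature and salt, also belong to the set.

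Over the 51, 40 were called lower and 3 higher, with a median difference of -1.55. A probe set entered through whichever of the 2 groups was high, so these counts describe the set and support nothing about it. The median over the set was 4.92, 3.63 and 4.50 on the N-rich arrays and 5.91, 5.16 and 6.09 on the N-absent arrays. The set's median did not overlap between the groups and differed within them. The oleosin gene AT3G01570 was not called (-0.48, adjusted p = 0.054), and LEA18 was called lower by -1.04. LEA4-5 had 7.92, 7.10 and 7.72 in N-rich and 9.16, 8.51 and 9.31 in N-absent (-1.41 ± 0.42, adjusted p = 0.0096), and its call was lost without N-rich replicate 2 (0.068). LEA4-5 was at 3.28 and 3.19 in Col-0 dark N-rich and N-absent. In the light it was high in the N-rich groups of both genotypes, at 7.65 in the mutant and 7.19 in Col-0.

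The other 5 of the 15 named genes with the largest lower calls lie outside the set. AT4G17670 had 3.95, 3.52 and 4.1 in N-rich and 6.83, 6.79 and 7.08 in N-absent (-3.04 ± 0.25), and differed by -3.75 ± 0.30 in Col-0 in darkness and by -2.82 ± 0.25 in the mutant in the light. AT5G53420, a CCT-motif protein gene, had 6.09, 5.87 and 5.89 in N-rich and 8.25, 8.37 and 8.34 in N-absent (-2.37 ± 0.17). AT3G26460 differed by -2.40 ± 0.31. AT5G01300, of the phosphatidylethanolamine-binding family, was lower by -2.46 ± 0.20, and its highest mean in the other 14 groups was 3.71.

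**Figure D4:**
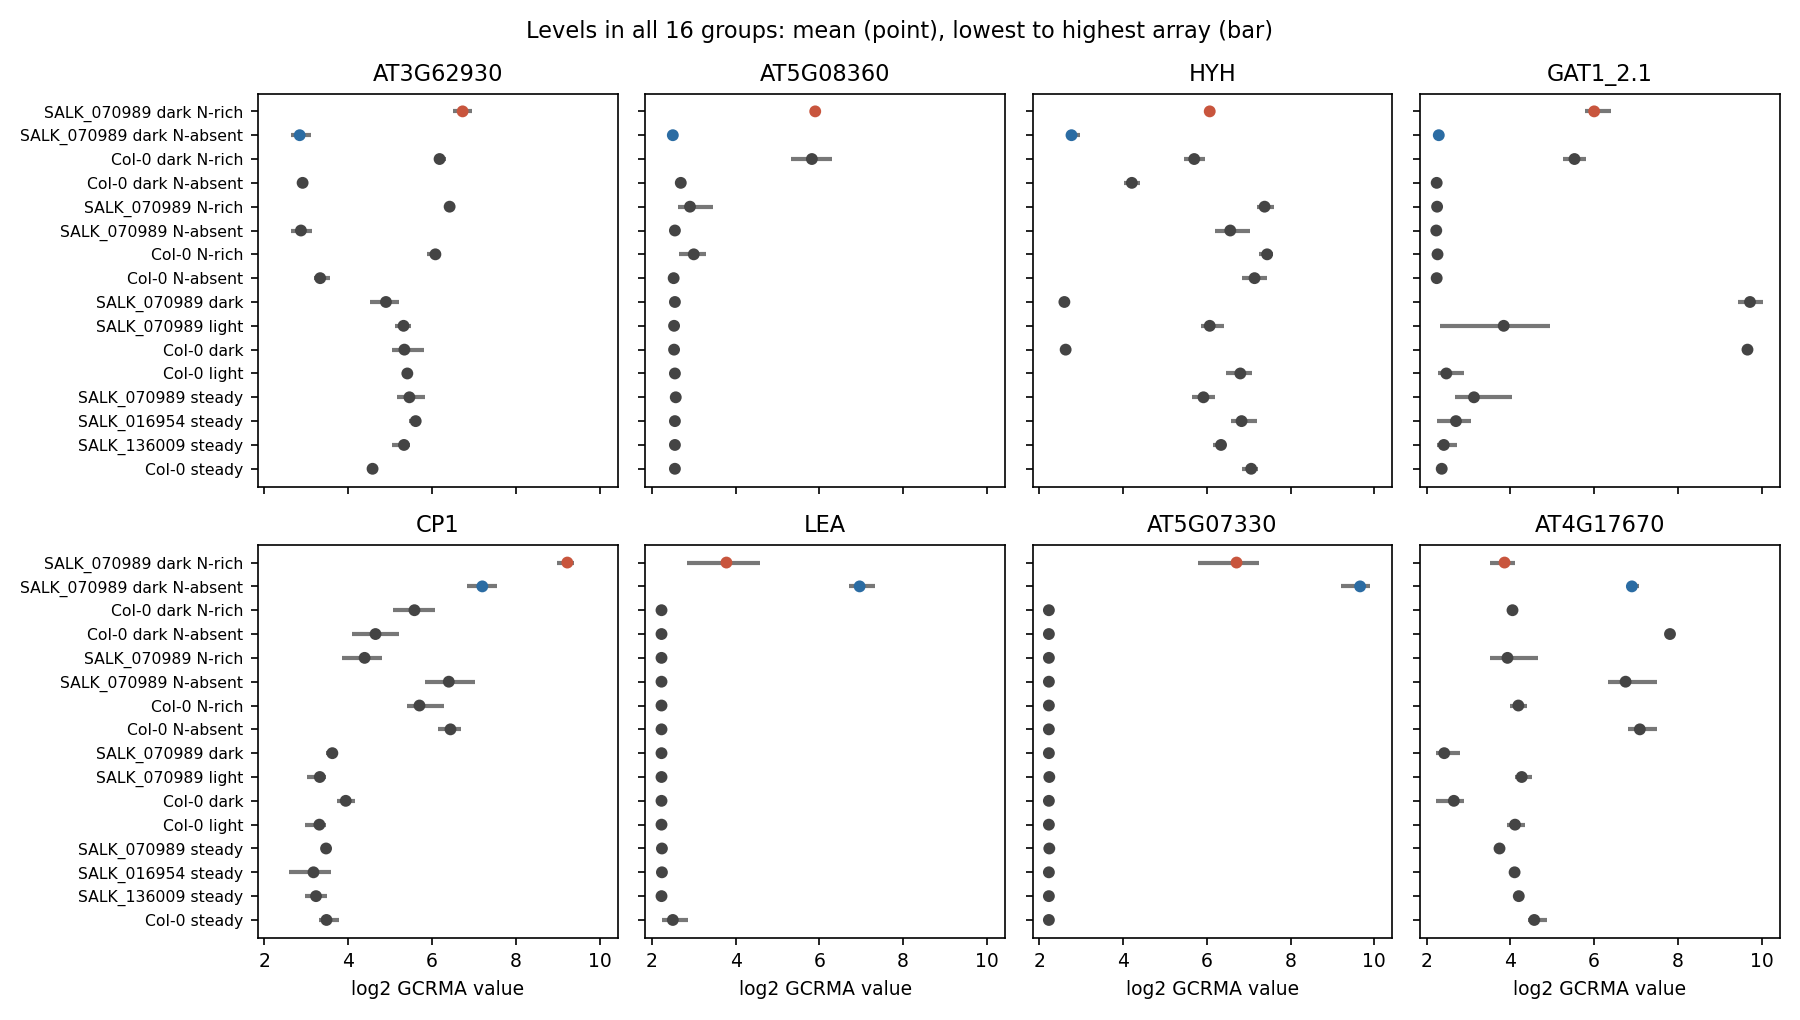
Levels of 8 genes in all 16 groups (log2; points are group means, bars run from the lowest to the highest array). LEA and AT5G07330 are near 2.23 outside the SALK_070989 dark nitrogen groups, AT5G08360 is high in the dark N-rich groups, and GAT1_2.1 is highest in the dark groups of the light experiment.

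The response was next set against that of Col-0 in the same treatments, the comparison that asks whether loss of WRKY1 alters the nitrogen response in darkness. In Col-0, with 2 arrays a group, 1447 of the 12863 probe sets were called higher and 1224 lower. Over all tested the shares were 10.6% and 9.60%. Of the 1890 higher in the mutant 664 (35.1%) were also higher in Col-0, which is 45.9% of the Col-0 calls, and 29 were lower there. Of the 2029 lower in the mutant 628 (31.0%) were also lower in Col-0, 51.3% of the Col-0 calls, and 86 were higher there. A gene called in one genotype only is not thereby shown to differ. The test of the difference itself called 440 members with a more positive response in SALK_070989 and 832 with a more negative one. Over all tested these shares were 3.47% and 6.07%. Of the 832, 39 belong to the set of 51, which was chosen for low values in Col-0. Without Col-0 dark N-absent replicate 1, the array with the higher GAPDH value, 229 and 448 were called, and without Col-0 dark N-rich replicate 1 the counts were 248 and 450.

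AT5G51440, a small heat shock protein gene, had the most positive difference of responses of a named gene. It was higher in SALK_070989 by 2.83 ± 0.29, with 7.74, 8.49 and 8.42 in N-rich and 4.66, 6.11 and 5.39 in N-absent. In Col-0 it had 6.43 and 7.28 in N-rich and 6.45 and 6.75 in N-absent, a difference of 0.25 ± 0.36. The difference of responses was 2.58 ± 0.46 (adjusted p = 0.0003), and in the fit of only the groups compared the call was lost (0.056). EFR, the receptor of bacterial elongation factor Tu, had 4.53, 5.02 and 4.31 in N-rich and 2.28, 2.86 and 3.01 in N-absent in the mutant, and 3.46 and 3.26 in N-rich and 3.43 and 3.94 in N-absent in Col-0 (2.23 ± 0.36, adjusted p = 7.9e-05). The mutant's groups were separate and those of Col-0 overlapped.

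AT1G57630, of the TIR-domain family, and AT1G49000 were higher in the mutant (0.82 and 0.84) and lower in Col-0 (-1.65 and -1.28). Their differences of responses were 2.47 ± 0.38 and 2.12 ± 0.41. AT3G28510 (2.20, adjusted p = 0.043) and AT2G02680 (2.12, 0.012) rest on the Col-0 arrays, whose N-rich values were 4.23 and 7.58 for AT3G28510 and 3.11 and 6.29 for AT2G02680. Without Col-0 dark N-rich replicate 1 their values were 0.52 (0.69) and 0.53 (0.35). AT2G02680 also lost its call when replicate 1 of Col-0 dark N-absent was left out (1.43, 0.17), and AT3G28510 without any 1 of 6 other arrays. In the fit of only the groups compared neither was called (0.28 and 0.29). HYH (1.80 ± 0.31) likewise had a more positive response in SALK_070989 and kept its call in every alternative tried. The calls of PGM (1.27 ± 0.40), AT1G59740 (1.27 ± 0.36), AT5G26200 (1.03 ± 0.27) and AT5G41670 (0.98 ± 0.26) were lost without single arrays and in the fit of only the groups compared. Without Col-0 dark N-rich replicate 1 PGM was at 0.67 (0.40), AT1G59740 at 1.04 (0.13) and AT5G41670 at 0.55 (0.23), and without Col-0 dark N-rich replicate 2 AT5G26200 was at 0.88 (0.067).

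For genes of the set of 51, chosen for low values in Col-0, the difference of responses repeats the mutant's own difference and adds no test. AT1G27990 (-3.38), LEA (-3.18), AT2G25890 (-2.99), AT5G07330 (-2.95) and AT5G04000 (-2.75) were at 2.23 or 2.24 on all 4 Col-0 dark nitrogen arrays. AT5G01300 lies outside the set but was also low in Col-0, at 2.58 to 2.73 on those arrays, with a value of -2.61 ± 0.31. AT2G21820 had 6.61, 5.59 and 6.79 in N-rich and 8.35, 7.55 and 8.80 in N-absent in the mutant, and 3.66 and 3.82 in N-rich and 3.24 and 2.98 in N-absent in Col-0. Its difference of responses was -2.54 ± 0.46 (adjusted p = 0.0004), and the call was lost in the fit of only the groups compared (0.053).

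Of 8 measured photosystem, antenna and Calvin cycle genes, 2 were lower in SALK_070989 and 5 were higher in Col-0. The difference was called negative for 4: LHCB4.2 (-1.06, adjusted p = 0.00022), PRK (-0.84, 0.0020), RCA (-0.69, 0.00052) and PSAE-1 (-0.48, 0.035). LHCB4.2, an antenna protein gene, had 11.44, 10.71 and 10.94 in N-rich and 11.52, 11.44 and 11.33 in N-absent in SALK_070989, and 11.56 and 11.28 in N-rich and 10.58 and 10.93 in N-absent in Col-0. The mutant's arrays overlapped, and those of Col-0 did not. In the fit of only the groups compared none of the 4 differences was called (0.085, 0.073, 0.095 and 0.21 in the same order). The 2 lower calls in the mutant, LHCB4.2 and PRK, were lost without N-absent replicate 1 (0.052 and 0.086) or N-rich replicate 3 (0.051 and 0.075), and LHCB4.2 also without N-rich replicate 2 (0.16). Without Col-0 dark N-absent replicate 1, 1 of the 8 was called in Col-0 and 3 differences of responses were called. Without Col-0 dark N-rich replicate 1 these counts were 2 and 3. The part of RNA integrity in these values was not tested.

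CHLM, a methyltransferase of chlorophyll synthesis, had 9.54, 9.47 and 9.44 in N-rich and 9.71, 9.68 and 9.84 in N-absent in the mutant, and its Col-0 means were 9.91 in N-rich and 9.04 in N-absent. Its difference of responses was -1.13 (adjusted p = 3.0e-07), and its smaller difference within the mutant (-0.25) lost its call without N-absent replicate 3 (0.11), N-rich replicate 2 (0.059) or N-rich replicate 3 (0.074). Of the 10 dark and carbon starvation genes, 4 were higher in SALK_070989 and 8 in Col-0, and the response was less positive in the mutant for 4, MCCA (-1.47), AKINBETA1 (-1.38), MCCB (-1.30) and IVD (-0.72). MCCA and MCCB encode the subunits of methylcrotonyl-CoA carboxylase in leucine breakdown, and AKINBETA1 a subunit of the SnRK1 energy-sensing kinase. Of these genes, only IVD was called in SALK_070989. The difference of responses of IVD lost its call without any 1 of 7 arrays, with adjusted p from 0.054 to 0.31, and that of the other 3 kept it in every alternative tried. Without Col-0 dark N-absent replicate 1, 6 of the 10 were called in Col-0 and 3 differences of responses were called.

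**Figure D5:**
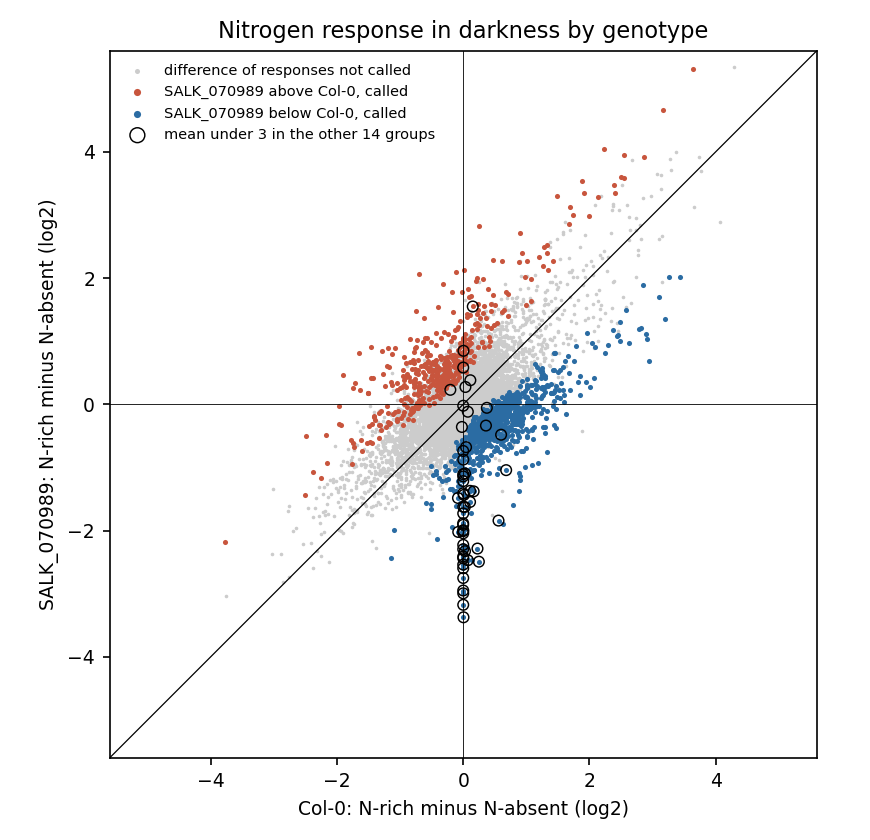
Nitrogen response in darkness (N-rich minus N-absent, log2) of SALK_070989 on the vertical axis and of Col-0 on the horizontal axis for the 12863 probe sets. Red and blue points are the 440 and 832 whose difference of responses passed an adjusted p of 0.05, and circles are the set of 51, most of them at about 0 in Col-0 and below 0 in SALK_070989.

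The dark response was last set against that of SALK_070989 in the light. There 1189 of the 12863 probe sets were called higher and 1276 lower. Over all tested the shares were 9.13% and 9.68%. Of the 1890 higher in darkness 673 (35.6%) were also higher in the light, 56.6% of the light calls, and of the 2029 lower 632 (31.1%) were also lower, 49.5% of the light calls. The difference of responses was called positive for 564 members and negative for 541. Over all tested these shares were 4.18% and 4.45%, and 38 of the 541 belong to the set of 51, chosen for low values in the light too. In the mutant in darkness, in Col-0 in darkness and in the mutant in the light together, 331 members were higher and 300 lower in each.

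CP1, a cysteine proteinase gene, had 9.38, 8.99 and 9.33 in dark N-rich and 6.84, 7.2 and 7.56 in dark N-absent, and 4.50, 4.80 and 3.86 in N-rich and 7.03, 6.34 and 5.83 in N-absent in the light. The difference of responses was 4.04 ± 0.42 (adjusted p = 1.2e-08). The groups were separate in both conditions and in opposite order. ASPGB1 had 5.66, 5.44 and 5.78 in dark N-rich and 4.38, 4.37 and 4.68 in dark N-absent, but 6.54, 5.28 and 4.85 in N-rich and 8.09, 7.69 and 7.49 in N-absent in the light (3.35 ± 0.47). GAT1_2.1 (3.70 ± 0.50), AT5G08360 (3.04 ± 0.22) and HYH (2.48 ± 0.27) were called in darkness, while in the light only HYH was, by 0.82 ± 0.19. AT5G38910, a germin-like gene, did not differ past the threshold in darkness (-0.17, adjusted p = 0.81) and was lower in the light by -3.64 ± 0.41 (3.47 ± 0.58).

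AT1G05575 was higher by 1.83 ± 0.22 in darkness and by 5.05 ± 0.22 in the light (-3.22 ± 0.31). AT5G16980 was at -0.24 ± 0.18 in darkness and higher by 2.76 ± 0.18 in the light (-3.0 ± 0.26). AT2G21820 (-3.67 ± 0.42) and LEA4-5 (-3.57 ± 0.59) were lower in darkness and higher in the light, and AT1G27990 (-3.37) and LEA (-3.18) were at the lowest values in the light. Among glutaredoxin genes, AT4G15680 was higher by 3.63 in darkness and by 5.19 in the light, and this difference was called (-1.56, adjusted p = 0.0028). AT4G33040 was also called (-1.56). AT3G62930 (0.34, adjusted p = 0.50) and AT4G15690 (-0.58, 0.20) did not pass this test, with standard errors of 0.26 and 0.28.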

How the data were processed

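Shoot RNA was hybridised to 1 Affymetrix array per sample, 46 in all. The authors deposited a table of GCRMA values, per the submitters' processing notes; that these deposited values are log2 was inferred from their range, 2.23 to 14.63. No source used here gives the version of GCRMA or says whether the 46 arrays went through one run. A shift of most transcripts together would be removed by such normalization, and probe sets without signal sit at nearly constant low values, so differences against them are limited by background. Precision is limited by how many arrays each group has.

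Groups were taken from the labels. A model of 16 group means was fitted to all arrays with limma 3.58.1 in R 4.3.3 (30 residual and 4.97 prior degrees of freedom). Contrasts were tested with eBayes over the 14288 probe sets with a group mean above 4, with Benjamini-Hochberg adjustment and a threshold of 0.05. Differences of responses are interaction contrasts of this fit. Calculations were tested on simulated data. Tables were summarised with pandas 2.3.3 and numpy 2.4.6 in python 3.11.15, and plots drawn with matplotlib 3.10.9.

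Probe sets were named from a platform annotation table updated by gene ID to the TAIR10.1 gene table. The annotation gives 13513 probe sets 1 gene and 503 several, and genes without a symbol keep their locus code. For a gene with several probe sets, the one with the highest mean was used in lists. The build of the files is not named, so no coordinates or sequences are given.

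The members and gene lists were chosen with earlier results of these data known. Named genes are the 15 highest and 15 lowest calls with 1 gene and arrays that do not overlap, 6 in each direction for each interaction, and up to 4 of each list; other list members named beside small counts were chosen after their values were seen. The alternatives removed the filter, raised it to 6 (10884 probe sets), adjusted over the members alone, added quantile normalization, used trend and robust options in eBayes, took replicate number as a block, fitted the compared groups by themselves, or left out single arrays. Seeing the data prompted 2 more, a crossed block and counts without the 51 probe sets. Same-numbered mutant arrays in darkness correlated by 0.0826, 0.0631 and 0.0128 in their deviations from the group means, so the fit without a block was kept. For the mutant in the light these correlations were 0.0127, 0.307 and -0.0584.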

Additional observations from a re-analysis of the deposited data

Results flagged for a closer look

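In darkness the nitrogen response differed between SALK_070989 and Col-0, by the test of the difference itself, for 1272 of the 12863 probe sets. This is 9.89% of the members, beside 9.54% of all 14288 tested. Of the genes named in the text (differences of responses on the log2 scale, SALK_070989 minus Col-0), those with a more positive response in the mutant were AT5G51440 (2.58), AT1G57630 (2.47), EFR (2.23), AT3G28510 (2.2), AT1G49000 (2.12), AT2G02680 (2.12), HYH (1.8), AT1G05575 (1.45), PGM (1.27), AT1G59740 (1.27), AT5G26200 (1.03), AT5G41670 (0.98) and SIR (0.53). SIR lost this call without any 1 of 7 arrays. Those with a more negative response were AT5G01300 (-2.61), AT2G21820 (-2.54), MCCA (-1.47), AKINBETA1 (-1.38), MCCB (-1.3), CHLM (-1.13), LHCB4.2 (-1.06), EXPA20 (-0.98), AT1G68670 (-0.95), PRK (-0.84), IVD (-0.72), RCA (-0.69), AT1G74470 (-0.53) and PSAE-1 (-0.48). AT1G68670 lost its call without Col-0 dark N-absent replicate 2 (adjusted p = 0.058) or N-rich replicate 1 (0.051), and AT1G74470 without replicate 1 of Col-0 dark N-absent (0.06) or N-rich (0.26). In the fit of only the groups compared EXPA20 (0.18), AT1G74470 (0.15) and SIR (0.15) also lost their calls. Genes of the 51 probe sets, low in Col-0 by the way they were chosen, were AT1G27990 (-3.38), LEA (-3.18), AT2G25890 (-2.99), AT5G07330 (-2.95), AT5G04000 (-2.75), AT4G36700 (-2.6), AT1G27461 (-2.54), AT3G17520 (-2.44), AT1G02700 (-2.41) and AT2G38905 (-2.36), which is a description and no test.

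Between darkness and light the response of SALK_070989 differed for 1105 probe sets, again by the test of the difference. This is 8.59% of the members, beside 8.63% of all tested. More positive in darkness (dark minus light) were CP1 (4.04), GAT1_2.1 (3.7), AT5G38910 (3.47), ASPGB1 (3.35), AT5G08360 (3.04), HYH (2.48), AT5G10210 (2.4), AT3G28510 (2.25), AT2G02680 (2.19), AT5G54130 (1.95), AT1G59740 (1.81), AT5G09800 (1.75), AT1G64190 (1.64), EFR (1.32), AT5G41670 (1.31), AT5G26200 (1.29), AT5G62720 (1.06), PPDK (0.97), BZIP53 (0.64) and SIR (0.53). AT3G28510, BZIP53 and SIR lost this call without single arrays, with adjusted p from 0.051 to 0.078. In the fit of only the groups compared EFR (0.13), AT5G62720 (0.062) and SIR (0.091) lost it. Among the negative differences below, EXPA20 (0.11) lost its call in that fit. EXPA20 and AT5G01300 had means under 4 in the light, so differences against those values are limited by background. More negative were AT2G21820 (-3.67), LEA4-5 (-3.57), AT1G05575 (-3.22), AT5G16980 (-3.0), AT5G01300 (-2.81), AT1G68570 (-1.87), AT4G15680 (-1.56), AT4G33040 (-1.56), CYP71B26 (-1.49), AT5G53420 (-1.11), EXPA20 (-0.92) and GSTU16 (-0.72). Genes of the 51 probe sets, chosen for low values in the light too, were AT1G27990 (-3.37), LEA (-3.18), AT2G25890 (-2.99), AT5G07330 (-2.95), AT5G04000 (-2.66), AT4G36700 (-2.6), AT3G17520 (-2.55), AT1G27461 (-2.54), AT1G02700 (-2.41) and AT2G38905 (-2.34), again as a description.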

How the results depend on the processing

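The count of 3919 calls in SALK_070989 in darkness lay between 2903 (without N-rich replicate 2) and 4163 (a further quantile normalization) in the alternatives run, and no difference called for a named gene changed sign in any of them. The near-even balance of higher and lower calls did turn: the fit of only the groups compared gave 1707 higher and 1647 lower in SALK_070989 in darkness and 686 and 537 in the light, and the replicate block gave 543 positive and 552 negative differences between darkness and light. A fit of only the groups compared gave 416 calls in Col-0 in darkness, 1223 in SALK_070989 in the light and 339 differences between genotypes, in place of 2671, 2465 and 1272. Leaving out single arrays gave 1604 to 2256 calls in Col-0 in darkness, the lowest when replicate 1 of Col-0 dark N-absent was left out, and 1768 when replicate 1 of Col-0 dark N-rich was. For the differences between genotypes the range was 677 to 1455, with 677 and 698 without these same arrays. The cause of these changes was not tested, beyond the fewer arrays in each fit.

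With the replicate number as a block, 3890 probe sets were called in SALK_070989 in darkness, and WES1 lost its call there (adjusted p = 0.075), as did PSAE-1 (0.067) and SIR (0.051) in the difference between genotypes. Same-numbered mutant arrays in darkness correlated by at most 0.0826, under the 0.1 asked of a pairing. Each of these dark arrays correlated best with its own number, but N-absent replicate 3 did so by 0.0128 against 0.0127 with N-rich replicate 2. Deviations from the mean of 3 arrays are tied to each other, so these values cannot decide whether the arrays were paired. The labels name no pairing. For the mutant in the light the correlations were 0.0127, 0.307 and -0.0584, so replicate 2 exceeded 0.1. There the block gave 2502 calls in place of 2465. In Col-0 in darkness the same-numbered correlation was -0.183, and the block gave 2661 calls with the numbers as labelled and 2736 with them crossed. Of 155 pairs of a named gene and a comparison, 28 lost their call and 1 gained it (PYE, adjusted p = 0.026) in the fit of only the groups compared, 6 lost it without the filter, and up to 17 lost it without a single array. Values near the bottom of the scale carry no order, so differences of probe sets low in one group are limited by background.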
